A study of Mus musculus with 64 samples.

Results

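Expression of 37 nuclear receptor genes other than the corticosteroid receptors was examined in mouse hippocampus and liver after corticosterone (CORT) or vehicle. The genes were the rows of both count tables whose Ensembl identifier carries a symbol of the thyroid hormone, retinoic acid, PPAR, clock-linked, liver X, xenobiotic, HNF4, retinoid X, testicular receptor, TLX, COUP-TF, estrogen, estrogen-related, progesterone, NR4A, NR5A or NR6A receptors. All 37 were found among 55414 gene identifiers in the acute table and 55573 in the continuous table. Mice were male F1 offspring of 129sv females carrying a paternally inherited Ube3a mutation and C57BL/6J males, 10 to 18 weeks old, so every group had a hybrid background. Angelman syndrome (AS) mice were Ube3a m-/p+, with a deletion of exon 5 on the maternal allele, and the other offspring were wild-type (WT). Because the paternal allele is silent in neurons but not in most other cells, this model removes UBE3A mainly from neurons, and liver cells keep a working copy. In the acute experiment, 24 mice received a subcutaneous injection of 3 mg/kg CORT or vehicle (5% ethanol in PBS) in the morning, and hippocampus was taken 3 h later from 6 mice per genotype and treatment. In the continuous experiment, 20 mice carried a pellet with 20 mg CORT and 80 mg cholesterol, or a vehicle pellet with 100 mg cholesterol, for 5 days, and hippocampus and liver were taken from 5 mice per genotype and treatment.

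Nuclear receptors are transcription factors with a DNA-binding domain and a ligand-binding domain, and many act as ligand-controlled switches for thyroid hormone, retinoids, fatty acids, oxysterols, bile acids or foreign compounds. Several bind DNA as heterodimers with a retinoid X receptor, whereas orphan receptors such as TLX and the COUP-TFs act without a known physiological hormone. In liver, HNF4A maintains hepatocyte identity, PPARα drives fatty acid oxidation during fasting, and CAR (Nr1i3) and PXR (Nr1i2) induce drug-metabolising enzymes. In hippocampus, TLX (Nr2e1) maintains neural stem cells and the NR4A receptors are immediate early genes of active neurons.

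Read depth was similar in all libraries, with 19049461 to 21052967 reads on genes in acute hippocampus, 19112929 to 21783009 in continuous hippocampus and 18612550 to 20868924 in liver. A count of 3 reads, taken as the detection floor of a library, therefore corresponded to 0.142 to 0.157, 0.138 to 0.157 and 0.144 to 0.161 counts per 1e6 reads on genes. Levels are given below as CPM, counts per 1e6 reads of the library size scaled with edgeR's TMM factors, with a scaling of its own for each library set unless the joint scaling of liver and continuous hippocampus is named. The tissue labels held, since summed CPM of 8 hippocampal neuron markers lay between 6530 and 11500 in hippocampus and between 67.1 and 206 in liver, and 8 hepatocyte markers lay between 102000 and 152000 CPM in liver against 19.1 to 155 in hippocampus. The Ube3a count over the whole gene did not separate the genotypes in hippocampus (63.2 to 84.7 CPM in acute WT vehicle mice and 64.1 to 79.9 in AS vehicle mice) and was lower without overlap in liver (41.8 to 54.4 CPM in WT vehicle mice and 28.5 to 38.6 in AS vehicle mice). As such a count also takes reads from the paternal allele and from the rest of the deleted one, it checked the labels in liver only. Continuous hippocampus of AS vehicle mouse 9 and WT vehicle mouse 13 was left out, which leaves 4 mice in each of those groups. Acute libraries fell into 2 sets by reads below the counting quality threshold, 1877 to 2237 in mice 1 to 16 and 2640 to 2850 in mice 17 to 24. The second set held all 6 AS CORT mice and 2 of 6 AS vehicle mice. The acute CORT results in AS mice are therefore also given with the set as a covariate. As only AS vehicle mice lie in both sets, that fit amounts to a comparison within mice 17 to 24.

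Sequences before the transcription start are shown for Nr2e1, Rorb and Nr4a3, the 3 genes called in acute AS hippocampus whose groups did not overlap. They are also shown for Nr1i2, Nr1i3 and Hnf4a, the 3 called higher in liver of CORT-treated AS mice without overlap. A call is an adjusted p under 0.05 in edgeR, and overlap was screened in called genes only, without a share over all genes. The windows searched were the 250 bases before the most upstream RefSeq start (GRCm38.p6), read 5′ to 3′. GENCODE M21 starts Nr4a3, Hnf4a and Nr2e1 upstream of that, so 152, 49 and 42 bases of their windows lie inside the gene, and only the bases before the GENCODE start are printed. Capitals mark any of 4 hexamers on either strand, the nuclear receptor site AGGTCA, the glucocorticoid receptor hexamer TGTTCT, the E-box CACGTG and the cAMP response element core TGACGT, the last of which was added after these sequences were read.
Nr2e1, chr10:42583633-42583840, minus strand: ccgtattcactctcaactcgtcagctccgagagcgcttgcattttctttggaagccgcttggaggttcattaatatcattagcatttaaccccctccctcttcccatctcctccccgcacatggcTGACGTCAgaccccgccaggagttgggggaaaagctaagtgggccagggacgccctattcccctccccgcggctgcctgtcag
Rorb, chr19:19111197-19111446, minus strand: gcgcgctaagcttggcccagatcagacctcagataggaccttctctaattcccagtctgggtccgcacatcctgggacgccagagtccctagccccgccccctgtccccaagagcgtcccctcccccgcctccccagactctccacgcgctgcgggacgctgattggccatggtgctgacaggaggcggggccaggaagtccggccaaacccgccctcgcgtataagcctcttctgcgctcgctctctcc
Nr4a3, chr4:48045055-48045152, plus strand: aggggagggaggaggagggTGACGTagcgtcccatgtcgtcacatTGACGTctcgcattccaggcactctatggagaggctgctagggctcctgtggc
Nr1i2, chr16:38294825-38295074, minus strand: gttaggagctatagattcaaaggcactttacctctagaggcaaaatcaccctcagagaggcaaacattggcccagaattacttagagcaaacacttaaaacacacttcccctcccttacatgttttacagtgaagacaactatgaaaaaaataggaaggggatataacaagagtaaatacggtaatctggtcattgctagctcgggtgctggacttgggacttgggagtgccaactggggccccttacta
Nr1i3, chr1:171213720-171213969, plus strand: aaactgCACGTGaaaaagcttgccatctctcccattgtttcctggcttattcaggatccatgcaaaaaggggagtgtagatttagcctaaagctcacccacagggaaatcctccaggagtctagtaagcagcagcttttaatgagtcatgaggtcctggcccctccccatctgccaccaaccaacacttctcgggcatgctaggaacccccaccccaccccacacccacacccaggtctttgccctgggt
Hnf4a, chr2:163506607-163506807, plus strand: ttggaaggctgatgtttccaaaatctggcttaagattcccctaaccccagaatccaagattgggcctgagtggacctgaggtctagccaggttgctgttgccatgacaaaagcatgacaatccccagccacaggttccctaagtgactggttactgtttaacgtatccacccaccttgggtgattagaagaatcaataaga
TGACGT stood at 2 places before the GENCODE start of Nr4a3, with another inside the gene, 147 bases before the RefSeq start, and at 2 overlapping places before Nr2e1, where both strands read it within TGACGTCA. CACGTG stood once before Nr1i3, and none of the hexamers was found in the windows of Rorb, Nr1i2 or Hnf4a. Over 32851 mouse start sites, TGACGT occurred in 6.47% of such windows, AGGTCA in 14% and CACGTG in 6.02%. Of the 37 genes, 35 had a start site in the table, 56 sites in all, of which 16.1% held AGGTCA, 5.36% TGACGT and 7.14% CACGTG. The hexamer TGTTCT occurred in 7.14% of the sites of these genes and in 16.1% of all sites. These matches describe the letters only.

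Hippocampus expressed most of the family at low to moderate levels, with Thra far above the rest. Levels between genes are compared as CPM per kb of exon, in WT vehicle mice, and only within a library set. Thra, which encodes thyroid hormone receptor α, stood at 251 ± 10.3 CPM per kb (SD, n = 6) in acute hippocampus. In continuous hippocampus it stood at 246 ± 15.9 (n = 4) in the scaling of that set and at 178 ± 12.1 in the joint scaling with liver, so levels in the joint scaling cannot be set against the acute ones. The next genes in acute hippocampus were Nr4a3 at 18.8 ± 3.36, the oxysterol receptor Nr1h2 at 17.3 ± 1.82, Rxrb at 16.4 ± 1.68, Nr2f1 at 15.7 ± 0.419 and Nr4a2 at 15.2 ± 2.18 CPM per kb. Their ranges over mice overlapped, so the order among these 5 is not set by the data. In total 21 of the 37 genes had a mean above 1 CPM per kb and 8 above 10 in acute hippocampus. Vdr (vitamin D receptor), Nr1i2, Nr1i3, Hnf4a, Hnf4g, Esr2 (estrogen receptor β) and Nr5a2 were too low in hippocampus to be tested. Esr2, Nr1i2, Hnf4a, Hnf4g and Nr5a2 had at most 3 reads in every one of the 24 acute libraries.

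Liver, given here in the joint scaling, had a different order. Hnf4a led with 183 ± 23.8 CPM per kb (SD, n = 5), followed by Rxra, the main retinoid X receptor of liver, at 123 ± 27.5, and the ranges of both genes over mice met at 157 to 158. Nr1i3 followed at 63.5 ± 21.6, the oxysterol receptor Nr1h3 at 51.5 ± 3.84, Nr2f6 at 47.2 ± 2.89, Nr1i2 at 36.9 ± 6.62 and Ppara at 32.7 ± 8.82 CPM per kb. Rxra and Nr1i3 did not overlap, with a lowest Rxra value of 95.7 and a highest Nr1i3 value of 88.4, whereas from Nr1i3 to Ppara each gene overlapped the next. The core clock repressor Nr1d2 and the fatty acid receptor Ppard varied most among the better expressed genes, from 6.96 to 26.3 and from 1.21 to 9.11 CPM per kb in the 5 WT vehicle mice. Above 1 CPM per kb lay 25 genes and above 10 lay 11. Nr4a3, Pgr, Nr2e1, Esr2 and Rorb had at most 3 reads in each of the 20 liver libraries. Exons of Nr1i3 share 74.9% of their bases with the antisense gene Tomm40l, those of Nr2f6 54.4% with Ocel1, those of Rarb 34.1% with Top2b and those of Nr2c2 30.7% with Mrps25, and as the strand setting of the counting was not given in the sources used here, their values may include reads of these partners.

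**Figure D1:**
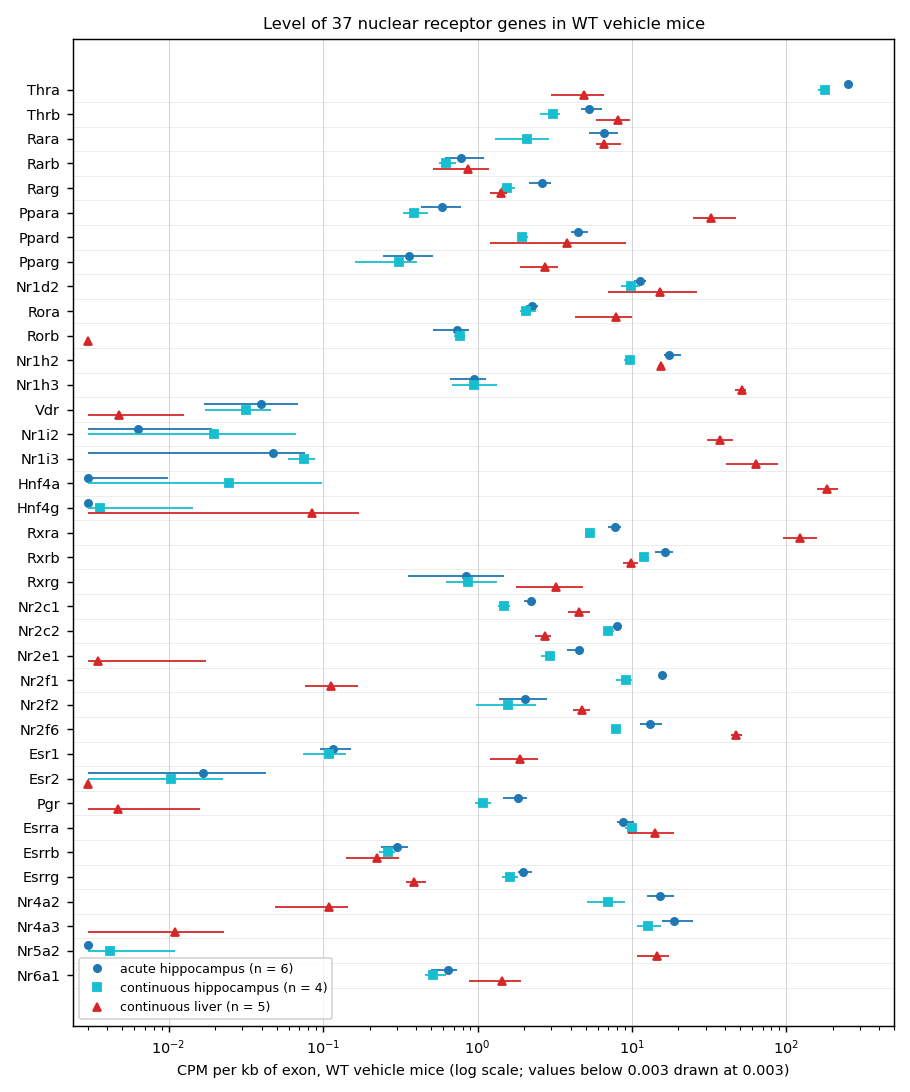
Mean level of each of the 37 genes in WT vehicle mice (points) with the lowest and highest mouse (lines), in CPM per kb of exon on a log axis, for acute hippocampus (n = 6), scaled alone, and for continuous hippocampus (n = 4) and liver (n = 5), scaled jointly, so that acute points cannot be set against the other 2 sets. Thra is the highest in both hippocampus sets, at 251 in the acute and 178 in the joint scaling, whereas Hnf4a at 183 and Rxra at 123 lead in liver.

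Liver and hippocampus of vehicle mice were compared in a joint edgeR fit of both tissues, normalised together, in which 34 of the 37 genes passed the filter on low counts. Of these, 24 also passed it in each tissue by itself. The other 10 passed through 1 tissue only and so had to differ, Hnf4a, Nr5a2, Nr1i2 and Nr1i3 through liver and Rorb, Nr2e1, Nr2f1, Pgr, Nr4a2 and Nr4a3 through hippocampus, and they are left out of the counts. Of the 24 genes 15 were higher and 4 lower in liver of WT mice, where 41.8% and 47.8% of all genes in the joint fit were called. In AS mice 17 were higher and 4 lower, against 41.4% and 48% of all genes. With 89.6% and 89.5% of all genes differing between organs, a call by itself says little about this family, and the sizes matter more. The median log2 ratio of liver to hippocampus over the 24 genes was 1.43 for WT and 1.42 for AS mice, against -0.16 over all genes in both, among which genes that passed through 1 tissue are included.

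Genes that were high in liver and near the floor in hippocampus were Hnf4a, Nr5a2, Nr1i2 and Nr1i3. Hnf4a had 11623 to 15306 reads in the 5 WT vehicle livers and 14, 0, 0 and 0 reads in the 4 hippocampi. The ratio of pooled counts was 7439 (95% exact interval for counting error 4433 to 13607) in WT mice and 30803 (10540 to 149373) in AS mice. The hippocampus with 14 reads came from WT vehicle mouse 1, which also had the highest sum of hepatocyte markers, 155 CPM. Without it no Hnf4a read is left in WT hippocampus, and liver was at least 8664-fold higher against a floor of 3 reads per library. In AS mice all 3 reads came from mouse 2, and the bound without it was 7781-fold, so the difference between the ratios of 7439 and 30803 is not read as one between genotypes. Nr5a2, which encodes the bile acid synthesis regulator LRH-1, had 931 to 1479 reads in liver and 1, 2, 0 and 0 in hippocampus, a ratio of 3362 (1150 to 16305), or 7454 (1337 to 294449) without the 2 reads of mouse 4. For Nr1i2, liver had 1174 to 1778 reads and hippocampus 5, 0, 0 and 1, a ratio of 1847 (848 to 5035). The 5 reads came from the same WT vehicle mouse 1, and without it the ratio was 8298 (1489 to 327790). Nr1i3 was detected in hippocampus with 9, 8, 10 and 12 reads, and the fitted log2 ratio was 9.70 ± 0.29 (SE). Ppara had a log2 ratio of 6.38 ± 0.20, with 95.8 to 181 CPM in liver and 1.27 to 1.83 CPM in hippocampus in the joint scaling. No liver overlapped a hippocampus in these 5 genes, but they were named for their large ratios, so this is no separate result.

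Genes of the opposite kind were Rorb, Nr4a3, Nr2e1, Pgr and Nr2f1. Rorb, a receptor of cortical and thalamic neurons, had 240, 282, 234 and 241 reads in WT vehicle hippocampus and 0 in each of the 5 livers, so it was at least 42.3-fold lower in liver against a floor of 3 reads per library. In AS mice a single liver read gave a ratio of hippocampus to liver of 680 (122 to 26901), and without that liver, of mouse 2, the level was at least 45.2-fold lower. Nr2e1 had 320, 361, 304 and 295 reads in hippocampus and 1, 0, 0, 0 and 0 in liver, a ratio of 815 (146 to 32224), which rests on 1 read of mouse 1. Without that liver Nr2e1 was at least 54-fold lower. For Nr4a3 the hippocampus had 2006, 1980, 2441 and 2491 reads and the liver 2, 2, 0, 0 and 1, a ratio of 1136 (487 to 3499). Pgr, the progesterone receptor gene, had 307, 283, 243 and 253 reads in hippocampus and 0, 2, 1, 0 and 0 in liver, a ratio of 231 (78.7 to 1120), or 556 (99.5 to 21971) without the 2 reads of mouse 4. Nr2f1 had a fitted log2 ratio of -6.32 ± 0.16 with 6 to 13 reads in liver, and Thra one of -5.18 ± 0.17. Among the genes present in both organs, Rxrb was 0.29 ± 0.07 lower and Nr1h2 0.66 ± 0.06 higher in liver on the log2 scale (adjusted p = 0.000135 and 4.21e-12, edgeR quasi-likelihood test). Rarg and Nr1d2 were called in neither genotype.

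Acute CORT changed 1 of 30 tested genes in WT hippocampus and 8 of 30 in AS hippocampus. In WT mice none was higher and 1 lower, where 1.06% and 0.417% of all genes were called higher and lower. In AS mice 2 were higher (8.25% of all genes) and 6 lower (9.62% of all genes). The median log2 change over the 30 genes was -0.0050 in WT and -0.15 in AS mice, against -0.0023 and 0.0064 over all genes tested. With the library set as a covariate 1 of the 30 was called in AS mice, where 1.03% of all genes were called, and the median was -0.078. Only AS vehicle mice lie in both sets, so this fit equals a comparison with vehicle mice 17 and 18 alone, and the latter is no second check. Without mouse 15, 16, 19, 22 or 24 the number called was 5. Differences between the genotypes in the CORT effect were called for 1 gene, where 4.49% of all genes were called. Under vehicle alone AS and WT mice differed in none of the 30 by edgeR, by DESeq2 or at an unadjusted p under 0.05, where 0.157% of all genes were called.

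Nr2e1 (ENSMUSG00000019803, chr10:42561963-42583632 in GENCODE M21, GRCm38, as for the genes below) was the gene that fell in both genotypes. In WT mice its level lay between 14.1 and 18.2 CPM with a median of 17.3 under vehicle, and between 11.7 and 13.7 with a median of 12.5 after CORT. In AS mice it lay between 15.2 and 20.7 CPM with a median of 17.8 under vehicle, and between 10.2 and 14.7 with a median of 12.1 after CORT. All 12 CORT-treated mice were below all mice of their genotype given vehicle. The log2 change was -0.43 ± 0.08 (SE) in WT mice (adjusted p = 0.00249, edgeR) and -0.56 ± 0.08 in AS mice (adjusted p = 4.71e-05), and the difference of -0.13 ± 0.11 between them was not called (adjusted p = 0.52). Nr2e1 was also the only gene of the 8 that was still called in AS mice when the 6 CORT mice were set against mice 17 and 18, whose vehicle levels were 18.2 and 18.4 CPM.

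Rorb and Nr4a3 fell in AS mice, and their groups did not overlap there. Rorb lay between 6.81 and 9.94 CPM (median 8.73) in AS vehicle mice and between 4.21 and 6.21 (median 4.73) after CORT, a log2 change of -0.77 ± 0.14 (adjusted p = 0.000786, edgeR). In WT mice its ranges were 5.67 to 9.69 and 5.42 to 9.94 CPM, with a log2 change of -0.21 ± 0.14 (adjusted p = 0.63). The difference between the genotypes was -0.56 ± 0.20 (adjusted p = 0.0923). Nr4a3, an activity-induced transcription factor, lay between 98.1 and 144 CPM (median 104) in AS vehicle mice and between 69.8 and 86.5 (median 77.2) after CORT, a log2 change of -0.55 ± 0.12 (adjusted p = 0.00379). WT mice had 93.3 to 150 CPM under vehicle and 78.1 to 120 after CORT, and neither the log2 change of -0.18 ± 0.12 nor the difference of -0.36 ± 0.17 between the genotypes (adjusted p = 0.201) was called. Within mice 17 to 24 the AS log2 change was -0.73 for Rorb (adjusted p = 0.082) and -0.39 for Nr4a3 (adjusted p = 0.487).

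The other 5 calls in AS mice rested on groups that overlapped. Nr4a2, the dopaminergic neuron factor Nurr1, went from 51.9 to 84.3 CPM under vehicle (median 65.5) to 29.8 to 62.6 after CORT (median 42.8), a log2 change of -0.58 ± 0.19 (adjusted p = 0.0312, edgeR). Rarg, a retinoic acid receptor, went from 8.52 to 14.2 CPM (median 11.9) to 6.37 to 9.65 (median 8.09), a log2 change of -0.48 ± 0.12 (adjusted p = 0.00895). In Nr1h2 the vehicle mice lay between 45.4 and 63.8 CPM (median 58.8) and the CORT mice between 41.2 and 47.5 (median 44.2), a log2 change of -0.34 ± 0.08 (adjusted p = 0.00609). For Rarg and Nr1h2 the vehicle mice 17 and 18 were the lowest of their group, at 8.73 and 8.52 CPM and at 45.4 and 47.1 CPM, next to the CORT mice of the same library set. Set against these mice alone, the log2 change was -0.09 for Rarg (adjusted p = 0.955) and -0.07 for Nr1h2 (adjusted p = 0.947). Nr4a2 gave -0.33 in that comparison (adjusted p = 0.859). In WT mice Nr4a2 and Rarg changed by -0.19 ± 0.18 and -0.03 ± 0.12, and the differences between the genotypes were not called (adjusted p = 0.365 and 0.108).

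Ppara and Rora were higher in AS mice. Ppara lay between 1.5 and 2.47 CPM (median 1.88) under vehicle and between 1.81 and 3.73 (median 2.84) after CORT, with 28 to 78 reads in these mice and a log2 change of 0.54 ± 0.19 (adjusted p = 0.0445). Rora, a clock-linked receptor also found in Purkinje cells, went from 27.2 to 31.3 CPM (median 29.0) to 31.1 to 37.9 (median 35.0), a log2 change of 0.25 ± 0.08 (adjusted p = 0.0327, edgeR). The genotype differences of 0.59 ± 0.26 for Ppara and 0.06 ± 0.11 for Rora were not called (adjusted p = 0.172 and 0.809). Calls of Ppara, Rora and Nr4a2 depended on single mice. Ppara was no longer called when any of 10 mice (13 to 16, 18, 19 and 21 to 24) was left out, with log2 changes of 0.44 to 0.57 and adjusted p of 0.0535 to 0.12. The call of Rora was lost for any of 8 mice (15 to 17, 19 to 22 and 24), with log2 changes of 0.22 to 0.26, and that of Nr4a2 for any of 7 (14 to 16, 19 and 22 to 24), with log2 changes of -0.59 to -0.49. Rora in WT mice changed by 0.20 ± 0.08 (adjusted p = 0.357, edgeR), where CORT mouse 8 was the lowest at 23.7 CPM against 34.1 to 37.6 in the other 5, and without this mouse the change was 0.28 (adjusted p = 0.00793). Set against vehicle mice 17 and 18 alone, Ppara gave 0.44 (adjusted p = 0.769) and Rora 0.28 (adjusted p = 0.479) in AS mice.

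**Figure D2:**
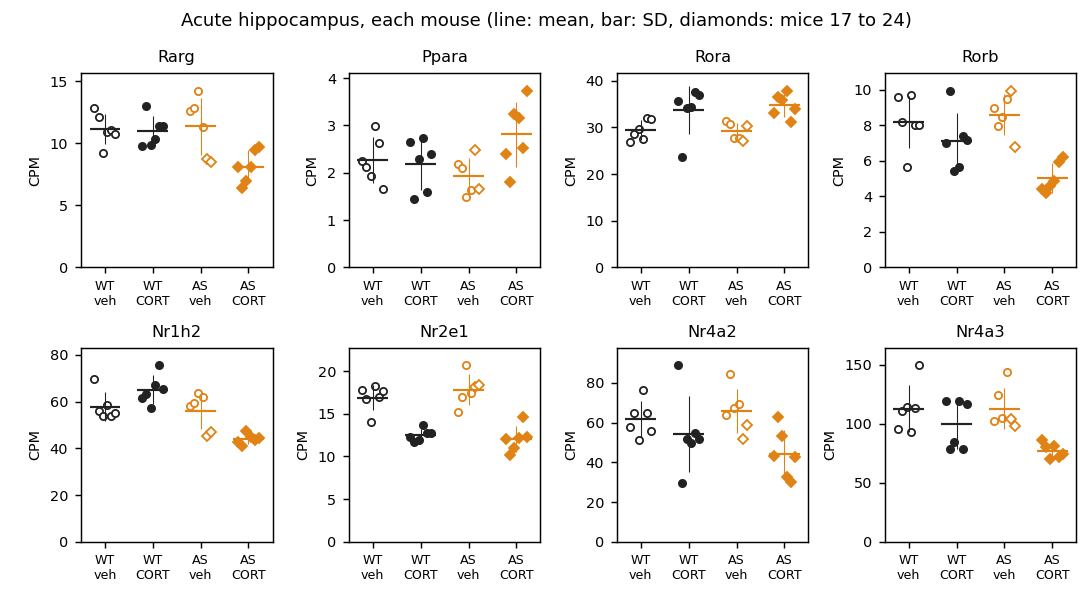
CPM in each mouse of the acute experiment for the 8 genes called in AS hippocampus (open, vehicle; filled, CORT; black, WT; orange, AS), with mean and SD; diamonds mark mice 17 to 24. For Nr2e1 all CORT mice lie below the vehicle mice of their genotype, whereas for Rarg and Nr1h2 the vehicle mice 17 and 18, at 8.73 and 8.52 and at 45.4 and 47.1 CPM, lie at the level of the CORT mice.

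The CORT effect differed between the genotypes for Nr1h2 (ENSMUSG00000060601, chr7:44549616-44553951), which encodes liver X receptor β, an oxysterol sensor present in most cells. WT mice had 53.9 to 69.9 CPM (median 55.6) under vehicle and 57.2 to 75.6 (median 64.5) after CORT, a log2 change of 0.17 ± 0.08 that was not called (adjusted p = 0.463, edgeR). Together with the lower level in CORT-treated AS mice the difference was -0.51 ± 0.12 (adjusted p = 0.0263). Without AS vehicle mouse 14 it was -0.49 (adjusted p = 0.0594) and no gene of the 30 was called, whereas without AS vehicle mouse 17 or 18 the number called was 5 and 6. With the library set as a covariate it was -0.24 (adjusted p = 0.891). In that fit the calls over all genes for CORT in AS mice went from 2612 to 150 and for the difference between genotypes from 656 to 1. It sets the AS CORT mice against vehicle mice 17 and 18 only, so errors are larger, at 0.20 (SE) for a Rorb change of -0.73. Calls can be lost through fewer mice, and the part of the library set in them was not tested. Summed CPM of 8 myelin genes also moved, from 2600 to 5040 in AS vehicle mice to 1760 to 3480 in AS CORT mice, with 3 of the 8 lower, and its part in these results was not tested. In bulk tissue, fewer cells of a type and less RNA per cell cannot be told apart.

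CORT for 5 days changed 0 of 30 tested genes in WT hippocampus and 1 in AS hippocampus. In WT mice 3 genes had an unadjusted p under 0.05 and DESeq2 called 1, and over all genes edgeR called 0.803% higher and 2.11% lower. In AS mice 2.03% of all genes were higher and 1.75% lower. No gene of the family, and 0% of all genes, had a CORT effect that was called different between genotypes, by edgeR or DESeq2, and 0 of the 30 had an unadjusted p under 0.05 for it. AS and WT mice averaged over treatments differed in none of the 30 by edgeR or DESeq2, where 0.348% of all genes were called, although 4 had an unadjusted p under 0.05. Median log2 changes over the 30 genes were -0.0066 in WT and -0.026 in AS mice.

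Rorb (ENSMUSG00000036192, chr19:18930605-19111196) was the gene that fell in AS mice. Its values were 11, 14.3, 14.5 and 9.27 CPM in the 4 AS vehicle mice and 8.08, 10.7, 6.60, 8.79 and 7.42 CPM in the 5 AS CORT mice. Of the CORT mice 1, at 10.7 CPM, lay above the lowest vehicle mouse. In WT mice vehicle values were 11, 12.8, 12.3 and 10.9 CPM and CORT values 9.13, 8.34, 6.64, 9.06 and 7.97 CPM, with no overlap. The log2 change was -0.56 ± 0.14 (adjusted p = 0.0316, edgeR) in AS and -0.51 ± 0.14 (adjusted p = 0.0616) in WT mice, and the difference of -0.05 ± 0.20 was not called. DESeq2 called the WT change as well. In AS mice the call was lost when mouse 7, 10, 16 or 18 (CORT) or mouse 11 or 14 (vehicle) was left out (log2 change -0.58 to -0.47, adjusted p 0.0561 to 0.13), in a fit of these 2 groups alone (-0.55, adjusted p = 0.0911) and when all 20 mice were kept (-1.01, adjusted p = 0.0614). Summed CPM of 8 thalamus markers was 51.0 to 259 in AS vehicle mice and 58.1 to 75.1 in AS CORT mice, and its part in the Rorb result was not tested. Nr4a3 had 132, 122, 133 and 120 CPM in AS vehicle mice and 69.5, 115, 105, 80.7 and 98.3 CPM after CORT, without overlap, and its log2 change of -0.43 ± 0.13 missed the threshold (adjusted p = 0.0657). Nr2e1 changed by -0.23 ± 0.09 in WT and -0.20 ± 0.09 in AS mice (adjusted p = 0.208 and 0.307). Rxra changed by 0.25 ± 0.09 and 0.26 ± 0.09 (adjusted p = 0.156 and 0.12). The pellet and the injection differ in dose, route and time, so these values stand beside the acute ones without a test between them.

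**Figure D3:**
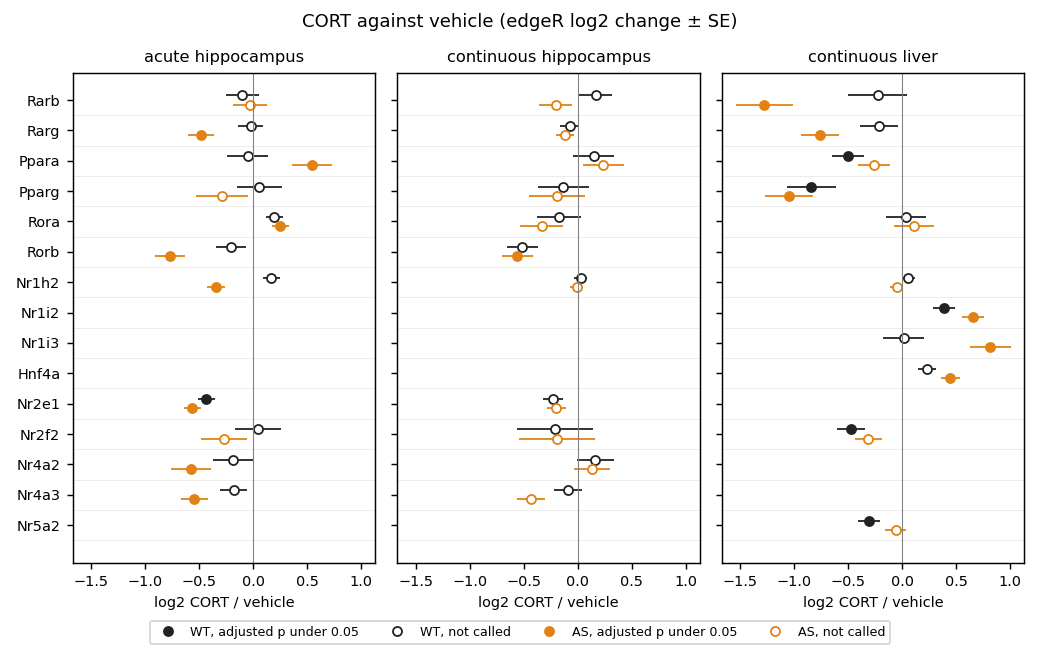
Log2 CORT over vehicle ± SE from edgeR for the 15 genes called for CORT in any set, in WT (black) and AS mice (orange); filled points had an adjusted p under 0.05, and an empty place means that the gene was not tested in that set. Nr2e1 lies below 0 in all 4 hippocampus comparisons and Pparg below -0.8 in both genotypes in liver.

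Liver showed changes in 5 of 28 tested genes in WT mice and 6 of 28 in AS mice after 5 days of CORT. In WT mice 1 was higher (8.73% of all genes) and 4 lower (9.9% of all genes). In AS mice 3 were higher (12.6% of all genes) and 3 lower (15% of all genes). The median log2 change was -0.034 in WT and -0.045 in AS mice, against -0.0047 and -0.0032 over all genes. Rorb, Vdr, Hnf4g, Nr2e1, Nr2f1, Esr2, Pgr, Nr4a2 and Nr4a3 were too low in liver to be tested. No CORT effect was called different between the genotypes for any of the 28, by edgeR or DESeq2, where edgeR called 0% of all genes, and 3 of the 28 had an unadjusted p under 0.05. AS and WT livers averaged over treatments differed in 0 of the 28 by edgeR or DESeq2, where 0.326% of all genes were called, and 4 had an unadjusted p under 0.05.

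Nr1i2 was higher in both genotypes, and Nr1i3 and Hnf4a were called higher in AS livers. Nr1i2 (ENSMUSG00000022809, chr16:38248323-38294824), which encodes PXR, had 85.6, 80.7, 58.2, 61.7 and 63.5 CPM in WT vehicle livers and 83.9, 93.0, 83.7, 107 and 90.8 CPM after CORT. In AS livers it had 68.0, 73.2, 58.4, 69.2 and 68.2 CPM under vehicle and 91.4, 112, 112, 105 and 110 CPM after CORT. The AS groups did not overlap, and in WT mice 1 vehicle liver lay above the 2 lowest CORT livers. The log2 change was 0.39 ± 0.10 in WT mice (adjusted p = 0.0102, edgeR) and 0.65 ± 0.10 in AS mice (adjusted p = 7.61e-05). Nr1i3 (ENSMUSG00000005677, chr1:171213970-171220701), which encodes CAR, had 226, 116, 151, 162 and 150 CPM in AS vehicle livers and 245, 323, 277, 290 and 280 CPM after CORT, again without overlap. Its log2 change was 0.81 ± 0.19 in AS mice (adjusted p = 0.0031). WT livers had 289, 276, 134, 183 and 160 CPM under vehicle and 251, 176, 205, 224 and 195 CPM after CORT, a log2 change of 0.01 ± 0.19, and the difference between genotypes of 0.80 ± 0.27 was not called (adjusted p = 0.476). Hnf4a (ENSMUSG00000017950, chr2:163506808-163572910) had 595, 594, 516, 595 and 580 CPM in AS vehicle livers and 837, 833, 663, 736 and 853 CPM after CORT. All 5 CORT livers were above all vehicle livers, and the log2 change was 0.45 ± 0.09 (adjusted p = 0.000614). In WT mice the log2 change of Hnf4a was 0.23 ± 0.09 (adjusted p = 0.0703), with 566 to 770 CPM under vehicle and 692 to 810 after CORT, and the difference between genotypes was not called (adjusted p = 0.661).

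Among the PPARs 2 of 3 were lower in WT and 1 of 3 in AS livers, and among the retinoic acid receptors 2 of 3 were lower in AS livers, where 9.9% of all genes were lower in WT and 15% in AS livers. The retinoid X and liver X receptors were not called in either genotype. Pparg (ENSMUSG00000000440, chr6:115360951-115490399), the adipocyte PPAR, which is scarce in healthy liver, fell in both genotypes. WT livers had 7.22, 6.13, 5.85, 6.78 and 4.15 CPM under vehicle and 3.62, 3.70, 3.06, 3.38 and 3.06 CPM after CORT. AS livers had 9.53, 9.19, 5.07, 11.1 and 5.04 CPM under vehicle and 3.61, 4.87, 4.66, 3.74 and 2.35 CPM after CORT. Neither genotype showed overlap, and the log2 changes were -0.84 ± 0.23 (adjusted p = 0.0119, edgeR) and -1.05 ± 0.22 (adjusted p = 0.00139). Ppara, the fatty acid oxidation receptor, had 134, 95.6, 71.3, 77.5 and 86.4 CPM in WT vehicle livers and 82.5, 62.5, 60.2, 63.5 and 60.5 CPM after CORT. Its log2 change was -0.50 ± 0.15 in WT livers (adjusted p = 0.0213) and -0.26 ± 0.15 in those of AS mice (adjusted p = 0.198), with a difference that was not called (adjusted p = 0.763). The WT call of Ppara was lost without vehicle mouse 1, which had the highest value (-0.33, adjusted p = 0.0745), and without CORT mouse 5, 12 or 20 (adjusted p 0.0504 to 0.055). Rarb (ENSMUSG00000017491, chr14:16430839-16819156), a retinoic acid receptor that is itself retinoid-induced, had 6.45, 7.43, 5.07, 8.59 and 5.91 CPM in AS vehicle livers and 2.83, 2.43, 3.58, 3.12 and 1.82 CPM after CORT. The groups did not overlap, and the log2 change was -1.28 ± 0.27 (adjusted p = 0.00121). WT livers had 2.65, 3.17, 4.67, 4.47 and 2.03 CPM of Rarb under vehicle and 2.08, 2.0, 1.97, 3.63 and 4.80 CPM after CORT, a log2 change of -0.23 ± 0.27 (adjusted p = 0.632, edgeR). The WT vehicle values lay below those of AS vehicle livers, but genotypes were not tested under vehicle in liver, and their difference averaged over treatments was not called. The difference between the genotypes was -1.05 ± 0.38 (adjusted p = 0.5). Rarg had 6.21, 6.33, 6.15, 5.60 and 5.77 CPM in AS vehicle livers and 2.62, 3.90, 3.48, 4.31 and 3.42 CPM after CORT, without overlap, and fell by 0.76 ± 0.18 on the log2 scale (adjusted p = 0.00293). In WT mice Rarg changed by -0.22 ± 0.18 (adjusted p = 0.445), and the difference of -0.54 ± 0.25 was not called (adjusted p = 0.596).

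Nr2f2 and Nr5a2 fell in WT livers. Nr2f2, a COUP-TF of venous endothelium and stroma, had 33.9, 32.6, 26.7, 32.2 and 27.1 CPM under vehicle and 28.1, 18.9, 23.7, 19.1 and 20.3 CPM after CORT. Its highest CORT liver lay among the vehicle livers, and the log2 change was -0.47 ± 0.13 (adjusted p = 0.0135, edgeR). In AS mice it was -0.31 ± 0.13 (adjusted p = 0.0774), and the difference was not called (adjusted p = 0.816). Nr5a2 had 60.9, 46.8, 63.3, 76.7 and 71.3 CPM under vehicle and 51.2, 50.1, 53.1, 54.1 and 49.4 CPM after CORT, a log2 change of -0.31 ± 0.10 (adjusted p = 0.0315). Its call was lost without vehicle mouse 13 (-0.23) or 17 (-0.27) and without CORT mouse 3, 5 or 20 (adjusted p 0.0554 to 0.101 over these 5). In AS mice the change of Nr5a2 was -0.06 ± 0.10 (adjusted p = 0.696), and the difference was not called (adjusted p = 0.661).

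**Figure D4:**
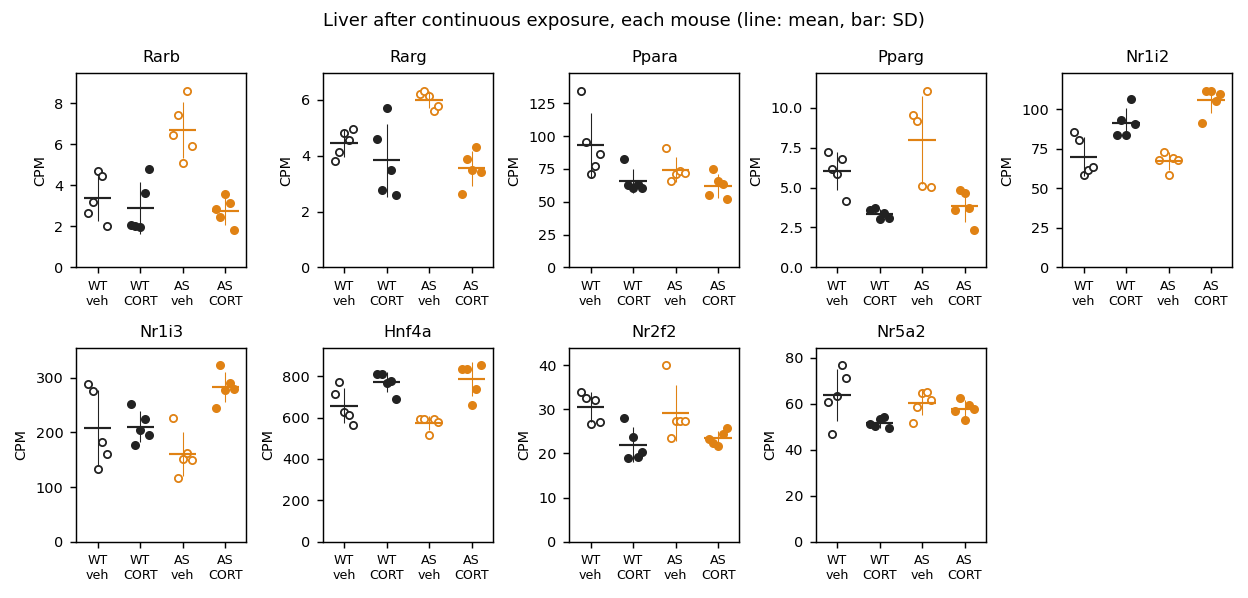
CPM in each of 5 livers per group for the 9 genes called for CORT in liver (open, vehicle; filled, CORT; black, WT; orange, AS), with mean and SD. Nr1i2 is higher and Pparg lower after CORT in both genotypes, whereas Nr1i3 rises from 116 to 226 CPM under vehicle to 245 to 323 after CORT in AS mice but overlaps in WT mice.

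Other measures moved with CORT in these livers. Unaligned reads made up 5.39 to 8.93% of WT vehicle and 4.52 to 6.68% of AS vehicle libraries, against 3.2 to 4.77% and 1.49 to 3.23% after CORT. Of 6 Kupffer cell markers 5 were lower in each genotype, and their summed CPM went from 114 to 153 to 57.5 to 84.9 in WT and from 151 to 211 to 57.6 to 85.5 in AS livers. In AS livers 4 of 6 hepatic stellate cell markers and 3 of 5 sinusoidal endothelial markers were lower and 4 of 8 hepatocyte markers higher, and in WT livers 2, 1 and 1 of them moved in these directions. In AS livers the summed CPM of stellate cell markers overlapped between vehicle and CORT, at 192 to 266 and 162 to 220, and that of sinusoidal endothelial markers did not, at 183 to 251 and 144 to 182. Summed CPM of 5 red blood cell markers went from 343 to 573 to 229 to 328 in WT and from 243 to 475 to 124 to 192 in AS livers, with 2 and 4 of the 5 lower. The part of these measures in the receptor results was not tested.

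The CORT effect after 5 days, averaged over genotypes, differed between liver and hippocampus for 3 of the 24 genes that were tested in each tissue by itself, and 19.9% of all genes in the joint fit were called. Rarb, Ppara and Pparg had the lower CORT effect in liver, with differences of liver minus hippocampus of -0.70 ± 0.23 (adjusted p = 0.0246, edgeR), -0.54 ± 0.18 (adjusted p = 0.0284) and -0.76 ± 0.25 (adjusted p = 0.0285) on the log2 scale. In liver alone their mean change over genotypes was -0.75, -0.38 and -0.94, and in hippocampus -0.02, 0.19 and -0.16. The joint fit also called Nr1i3 (1.05 ± 0.37, adjusted p = 0.0415) and Pgr (-3.19 ± 1.08, adjusted p = 0.0372), which passed the filter through 1 tissue only and had at most 12 reads per hippocampus and at most 3 reads per liver, so that the CORT effect there could not be measured and no difference is read from these values. Without AS vehicle mouse 14 in liver the Pgr value was -1.70 (adjusted p = 1.0), and it was also lost without the liver of WT vehicle mouse 4 (-2.68) or 6 (-3.08). Ppara was lost without 1 of 3 hippocampi (mice 16, 17 and 19, -0.51 to -0.46) and Pparg without 1 of 2 (-0.65 without mouse 1, -0.68 without mouse 16). Nr1i3 was lost without any of 14 libraries (hippocampus of mice 2, 3, 6, 8, 11, 12, 14, 16 and 17 and liver of mice 3, 8, 11, 13 and 19, 0.95 to 1.04). With the hippocampi of mice 9 and 13 kept, Rarb turned to 0.28 (adjusted p = 0.802) and Ppara was -0.40 (adjusted p = 0.131). Without the filter on low counts Pparg, Nr1i3 and Pgr were lost (adjusted p = 0.0509, 0.0564 and 0.0559), and DESeq2 gave -1.85 for Pgr (adjusted p = 0.122). With the mouse number, which hippocampus and liver share, as a block, Pparg was -0.68 (adjusted p = 0.0859) and Pgr -3.49 (adjusted p = 0.116), while Rarb, Ppara and Nr1i3 were still called.

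**Figure D5:**
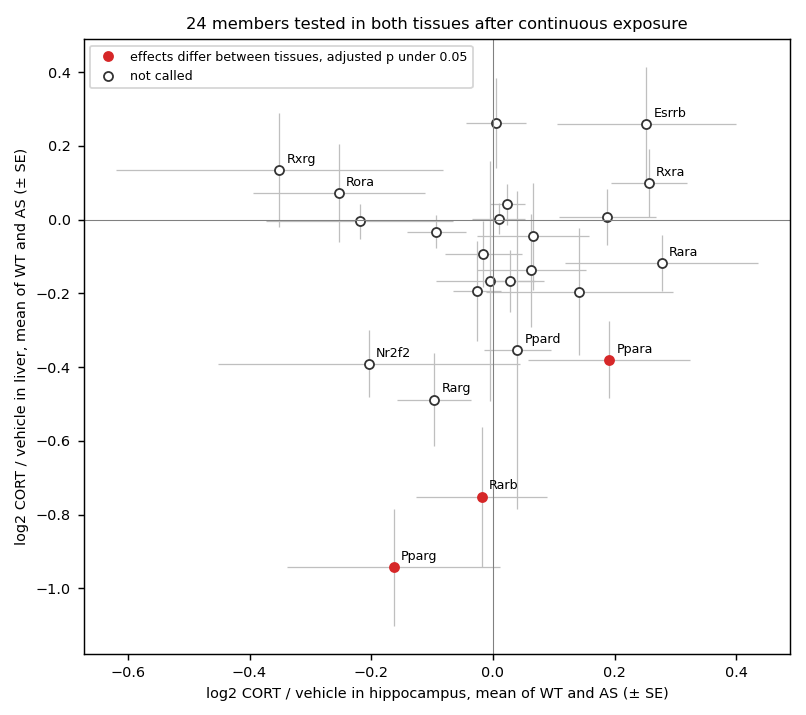
Log2 CORT over vehicle after 5 days, averaged over WT and AS mice, in hippocampus (x axis) and liver (y axis), ± SE, for the 24 genes tested in both tissues. Red points, Rarb, Ppara and Pparg, had effects that differed between tissues at an adjusted p under 0.05; they lie at -0.75, -0.38 and -0.94 in liver and between -0.16 and 0.19 in hippocampus.

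Genes that work with these receptors were taken from lists of ligand supply, coregulators and target genes, which were chosen with earlier results of these data known. Of 13 coregulators, 0 were called in acute WT, 1 in acute AS (0 with the library set as a covariate), 0 in continuous hippocampus of either genotype and 2 and 1 in WT and AS liver, all lower, where 18.6% of all genes were called in WT and 27.5% in AS livers. Ncoa3, a coactivator, was the one lower in both livers, by -0.26 ± 0.08 in WT and -0.39 ± 0.08 in AS mice. Of 12 ligand supply genes of the thyroid hormone and retinoid receptors, 1 was higher in acute WT hippocampus, where 1.48% of all genes were called, and 2 were higher and 3 lower in acute AS hippocampus, where 17.9% were. With the library set as a covariate 1 of the 12 was called in AS mice, Dio2, at 0.74 ± 0.14 (adjusted p = 0.00349, edgeR). Dio2, the deiodinase that makes active T3, rose by 0.41 ± 0.09 in WT and 0.69 ± 0.09 in AS mice (adjusted p = 0.0175 and 2.1e-05, edgeR). After 5 days 2 of 12 were lower in hippocampus of each genotype, where 2.92% of all genes were called in WT and 3.77% in AS mice. The lower ligand supply genes included the thyroid hormone transporter gene Slco1c1, with a log2 change of -0.65 ± 0.07 in WT and -0.50 ± 0.07 in AS mice. In liver, beside the same shares of all genes as for the coregulators, 1 of 8 was higher and 3 lower in each genotype, with Dio1, a hepatic deiodinase, at -1.01 ± 0.15 in WT and -1.72 ± 0.16 in AS mice.

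Among target genes, of 15 PPAR targets in liver 7 were higher and 2 lower in WT and 6 higher and 4 lower in AS mice. Cyp4a14, a fatty acid ω-hydroxylase, rose by 4.18 ± 0.58 and 3.51 ± 0.56. Among 11 CAR and PXR targets 1 was higher and 4 lower in WT and 3 higher and 2 lower in AS livers. Cyp2b10, the classical CAR target, rose by 5.73 ± 0.50 in WT and 5.28 ± 0.47 in AS mice (adjusted p = 1.26e-07 and 1.11e-07), and Cyp2c55 fell by 1.31 ± 0.33 and 2.94 ± 0.36. Of 12 HNF4A targets 3 were higher and 1 lower in WT and 4 higher and 0 lower in AS livers, among them Apoc3 at 0.99 ± 0.09 and 1.09 ± 0.09. Of 12 LXR targets 2 were higher in each genotype, and 3 and 2 were lower. Of 7 thyroid hormone targets 1 was higher and 1 lower in WT and 0 higher and 3 lower in AS livers, and none of 7 ROR and REV-ERB targets was called. The share of all genes called in these livers was 18.6% in WT and 27.5% in AS mice. In acute hippocampus 1 of 10 PPAR targets was higher in WT and 2 in AS mice, and of 9 LXR targets 0 were called in WT, while 1 was higher and 4 were lower in AS mice. The difference between genotypes was called for 1 of these 9 and for none of the 10 PPAR targets, and with the library set as a covariate no gene of either list was called in AS mice by edgeR. Over all genes 1.48% were called in WT and 17.9% in AS mice. Angptl4, a lipoprotein lipase inhibitor on the PPAR list, rose by 0.77 in WT and 0.81 in AS mice (adjusted p = 0.0354 and 0.00566, edgeR), and with the covariate the AS value was 0.49 ± 0.26 (adjusted p = 0.677). In hippocampus Klf9, a thyroid hormone and glucocorticoid target, rose after 5 days by 0.24 ± 0.06 in WT and 0.40 ± 0.06 in AS mice (adjusted p = 0.0337 and 0.000413). It was the 1 of 10 thyroid hormone targets that was higher in each genotype, beside 0 lower in WT and 1 lower in AS mice. Pltp, an LXR target, fell by 0.86 ± 0.09 and 0.44 ± 0.09 and was the 1 of 9 called in each genotype. Median log2 changes in WT and AS mice were -0.0095 and -0.16 over the thyroid hormone targets and -0.10 and 0.0060 over the LXR targets, and 2.92% and 3.77% of all genes were called. Summed CPM of 8 choroid plexus markers in continuous hippocampus lay between 79.4 and 2920 in WT vehicle and between 38.4 and 131 in WT CORT mice, with 2 of 6 tested lower, and between 87.5 and 333 and between 48.6 and 512 in AS mice. Its part in the Slco1c1 and Pltp results was not tested.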

How the data were processed

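RNA-seq was done on 24 acute hippocampi and on 20 hippocampi and 20 livers of the continuous experiment, 64 libraries in 12 groups; hippocampi and livers of the continuous experiment come from the same 20 mice. The authors deposited raw read counts per gene, made from 100-base paired-end reads of stranded mRNA libraries with STAR on mm10 and HTSeq-count; the annotation release and the strand setting of counting were not given in the sources used here. The 5 rows of each table that name no gene stayed out of library sizes. They held 13.0 to 15.9% of reads in acute hippocampus, 11.7 to 13.9% in continuous hippocampus and 15.4 to 23.3% in liver. The 37 genes, the lists and the tests were chosen with earlier results of these data known.

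Groups came from the labels. The hippocampi of mice 9 and 13 were left out, which the authors call technical outliers. Genes with over 20 median-of-ratios normalised counts in 3 or more mice of any group were tested in R 4.3.3 with edgeR 4.0.16 (TMM, quasi-likelihood F test, all groups of a tissue in one fit, Benjamini-Hochberg over all genes tested, threshold 0.05). Errors of log2 changes are SE. Statistics were given for the genes called for CORT, genotype or their interaction, and for the extremes of the tissue ratios. In the lists, up to 4 genes per list and tissue with the smallest adjusted p could be named. Alternatives were DESeq2 1.42.0, other scalings, no filter, only the groups compared, each mouse left out (100 refits), the library set as a covariate, a surrogate variable (sva 3.50.0), all 20 mice and, between tissues, the mouse number as a replicate block. Intervals and floors cover counting error only. On simulated counts for 14611 genes of the acute AS comparison, 74% of genes changed 1.5-fold and 98% of those changed 2-fold were called in the right direction; over 12273 genes of the liver AS comparison these were 64% and 87%, and over 15937 genes of the tissue difference in CORT effect 46% and 79%. Some genes of the lists are counted but not reported here by name.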

Additional observations from a re-analysis of the deposited data

Results flagged for a closer look

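Of 72 groups of mice examined for the genes called for CORT, 7 had a mouse apart from the others by Dixon's criterion, which chance flags in about 1 group in 20. In acute hippocampus these were the lowest Nr2e1 value of WT vehicle (mouse 3, 14.1 CPM, next 16.8), the highest Nr1h2 value of WT vehicle (mouse 1, 69.9 CPM, next 58.4), the highest Nr4a3 value of WT vehicle (mouse 6, 150 CPM, next 114) and the lowest Rora value of WT CORT (mouse 8, 23.7 CPM, next 34.1). In liver they were the lowest Hnf4a value of AS vehicle (mouse 11, 516 CPM, next 580), the highest Nr2f2 value of AS vehicle (mouse 2, 40.0 CPM, next 27.4) and the highest Ppara value of WT CORT (mouse 3, 82.5 CPM, next 63.5).

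The edgeR test of the difference itself called 6 CORT effects as different between groups, several of which other fits did not call. The effect on Nr1h2 in acute hippocampus was lower in AS than in WT mice, by -0.51 on the log2 scale, and was not called with the library set as a covariate (adjusted p = 0.891). Between liver and hippocampus after 5 days it differed by -0.70 for Rarb, -0.54 for Ppara and -0.76 for Pparg, the last not called with the mouse number as a block (adjusted p = 0.0859). Values of 1.05 for Nr1i3 and -3.19 for Pgr come from genes at or near the floor in one tissue, with at most 12 reads per hippocampus and at most 3 reads per liver, and are not read as differences.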

How the results depend on the processing

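Over the CORT, interaction and genotype comparisons, 27 results were recomputed in 613 alternatives. Of these, 519 kept their direction and side of the threshold, 93 lost the call and 1 reversed, Rarb between tissues with all 20 mice (0.281, adjusted p = 0.802, edgeR). For acute CORT in AS mice and the interaction, the set covariate and vehicle mice 17 and 18 alone are 1 comparison counted as 2 alternatives. For liver against hippocampus 957 of 960 alternatives kept their direction and side of the threshold, and 3 lost the call with all 20 mice. The 960 include the 10 genes that passed the filter through 1 tissue and had to differ, for which this outcome was fixed. No scaling moved the median change of all genes by over 0.1. The cause of the changes was not tested. In acute hippocampus the number of genes called in WT mice, 1, was 2 without CORT mouse 8. In AS mice, 8 became 1 with the library set as a covariate, which is the same comparison as with only vehicle mice 17 and 18. For the interaction, 1 became 2 with DESeq2, 3 without mouse 8, and 0 with the set as a covariate, again the same comparison as with only those vehicle mice. In continuous hippocampus 0 in WT mice became 1 with DESeq2, upper-quartile scaling or only the groups compared, and 1 in AS mice became 2 with DESeq2 or no filter and 0 with all 20 mice or only the groups compared. Liver WT, 5, became 3 with only the groups compared. The tissue difference in CORT effect, 5 of 34 in the joint fit, became 2 without a filter. Leaving out each mouse in turn gave 1 to 2 (acute WT), 5 to 9 (acute AS, 5 without mouse 15, 16, 19, 22 or 24), 0 to 6 (interaction), 0 to 2 (continuous hippocampus AS), 3 to 6 (liver WT, 3 without mouse 5 or 20) and 2 to 7 (tissue difference, 2 without the hippocampus of mouse 16).

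Hippocampus and liver of the continuous experiment share mouse numbers. Deviations of same-numbered libraries from their group means correlated between -0.0376 and 0.0421 in 18 mice, none over 0.1, and 5 of 18 correlated best with their own number. With the replicate block the calls were 29 in WT and 31 in AS mice for tissue, as without it, where 88.4% and 88.6% of all genes were called. These counts include the 10 genes that passed the filter through 1 tissue and had to differ. For the tissue difference in CORT effect the block gave 3 calls in place of 5, without Pparg and Pgr, where 15.8% of all genes were called.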
